A study of Mus musculus with 6 samples.

Results

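The genes described here are 10 parts of the hepatic response to interleukin-6 (IL-6), measured in mouse liver. They are the plasma protein genes Hp, Hpx, Itih3, Itih4, Lbp and Cp, the membrane reductase gene Steap4, the receptor gene Il6ra, the transcription factor gene Stat3 and the feedback inhibitor gene Socs3. They are a list of names taken from 22180 genes with a probe of their own, and all 10 were found. Each had 1 probe except Socs3, which had a pair, of which the brighter was used. No probe naming several genes included a member. The livers came from male C57BL/6 mice, 8 weeks old when acclimatised. One group, vehicle_HFD, had 7 days of vehicle and then 6 weeks of high-fat diet, and the other, Vascepa_HFD, had 7 days of Vascepa and then the same diet. Vascepa is icosapent ethyl, which is eicosapentaenoic acid, an omega-3 fatty acid, esterified to ethanol. There were 3 arrays in each group, numbered 1 to 3 in the titles, and whether they came from separate animals is not stated in the labels. The p-values therefore measure the spread between these arrays, which may be technical. Both groups had the diet, and a group without it was not analysed here.

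IL-6 binds its receptor on hepatocytes, encoded by Il6ra, and the complex acts through the shared subunit gp130 and JAK kinases to phosphorylate STAT3. STAT3 enters the nucleus and, with C/EBP and NF-kB factors, raises transcription of the acute phase plasma proteins, while its target Socs3 closes the loop by blocking the receptor complex. Haptoglobin (Hp) binds free haemoglobin and hemopexin (Hpx) binds free heme, Lbp carries bacterial lipopolysaccharide to CD14, Cp (ceruloplasmin) is a copper-binding ferroxidase, and Itih3 and Itih4 are heavy chains of the inter-alpha-trypsin inhibitor family. Steap4 is a metalloreductase known to be raised by inflammatory cytokines.

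RefSeq start sites on the mouse build GRCm38.p6 gave an upstream window of 250 bases for 8 of the 10 genes, 9 windows in all, Cp having a pair. Hp and Lbp had no entry. The windows were searched on both strands for a STAT palindrome (TTCNNNGAA), the same STAT arms spaced by 4 bases, an IL-6 response core (CTGGGAA), a C/EBP core (TTGCNNAA) and an NF-kB core (GGGNNTTCC). The STAT palindrome lay in 3 of the 9 windows, those of Socs3, Itih4 and Steap4, against 7.01% of 32817 windows of the same length over all genes. The C/EBP core lay in 3 of 9, those of Hpx, Steap4 and the downstream window of Cp, against 9.57%. The IL-6 response core and the NF-kB core lay in 1 of 9 each, both in Steap4, against 9.1% and 4.97%. The wider STAT spacing was found in 0 of 9, against 5.85%. The windows of 4 genes are shown, those with a STAT palindrome and that of Hpx, a plasma protein gene with a C/EBP core: Socs3 at chr11:117969367-117969616 on the minus strand, Itih4 at chr14:30886226-30886475 on the plus strand, Steap4 at chr5:7960222-7960471 on the plus strand, and Hpx at chr7:105600117-105600366 on the minus strand. Capitals mark the matched motifs, which do not overlap one another, and each line ends at the base before the annotated start.
Socs3: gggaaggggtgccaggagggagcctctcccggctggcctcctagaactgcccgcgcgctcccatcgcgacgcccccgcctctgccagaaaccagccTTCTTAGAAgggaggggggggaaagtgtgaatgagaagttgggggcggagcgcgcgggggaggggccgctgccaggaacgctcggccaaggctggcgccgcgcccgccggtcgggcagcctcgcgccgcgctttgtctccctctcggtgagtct
Itih4: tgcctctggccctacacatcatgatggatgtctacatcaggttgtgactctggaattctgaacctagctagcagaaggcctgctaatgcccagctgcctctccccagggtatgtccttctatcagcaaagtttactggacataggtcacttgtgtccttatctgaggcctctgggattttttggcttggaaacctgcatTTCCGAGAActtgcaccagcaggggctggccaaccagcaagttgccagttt
Steap4: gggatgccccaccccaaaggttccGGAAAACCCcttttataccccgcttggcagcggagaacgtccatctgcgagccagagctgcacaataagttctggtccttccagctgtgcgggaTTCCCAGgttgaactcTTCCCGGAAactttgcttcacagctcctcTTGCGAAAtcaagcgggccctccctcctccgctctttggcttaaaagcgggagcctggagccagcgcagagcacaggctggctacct
Hpx: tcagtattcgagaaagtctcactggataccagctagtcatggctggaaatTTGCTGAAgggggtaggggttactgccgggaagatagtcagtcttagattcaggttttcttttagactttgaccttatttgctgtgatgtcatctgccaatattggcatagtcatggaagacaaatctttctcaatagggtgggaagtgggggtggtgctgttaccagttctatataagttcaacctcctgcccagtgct
In Socs3 the palindrome starts 154 bases before the gene's start, in Itih4 51 and in Steap4 116. In Steap4 the NF-kB core starts 226 bases before the start, the IL-6 response core 132 and the C/EBP core 87, so the 4 kinds of match lie in a single window. In Hpx the C/EBP core starts 200 bases before the start. A match is a run of letters and was not tested for binding, and its absence says only that these letters are not in this window.

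All 10 genes were lower in the mean of the Vascepa livers. Their median log2 difference was −0.34, against −0.063 over the 13493 genes tested, of which 60.1% were lower. A lower mean was more common among brighter genes. Of the 7211 at or above the 75th percentile of probe level, 73.3% were lower, with a median of −0.14. The 9 members that passed that filter were all lower, with a median of −0.35. Lbp had the largest difference, 1.98-fold, followed by Steap4 at 1.49-fold and Il6ra at 1.43-fold. None of the 10 passed a Benjamini-Hochberg adjusted p under 0.05 in limma (adjusted p = 0.976 for each), and 0% of all genes did. At an unadjusted p under 0.05 there was 1 member, Lbp, which was lower, against 1.64% of all genes on that side and 362 genes on both sides. With array quality weights, which put 39.5 on Vascepa replicate 2 and at most 2.33 on any other array, limma called 7 members, all lower, against 18.9% of all genes. The values below are descriptions, on the log2 scale of the arrays, and are given in the order of replicates 1, 2 and 3. Levels of different genes rest on different probes and are not compared.

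**Figure D1:**
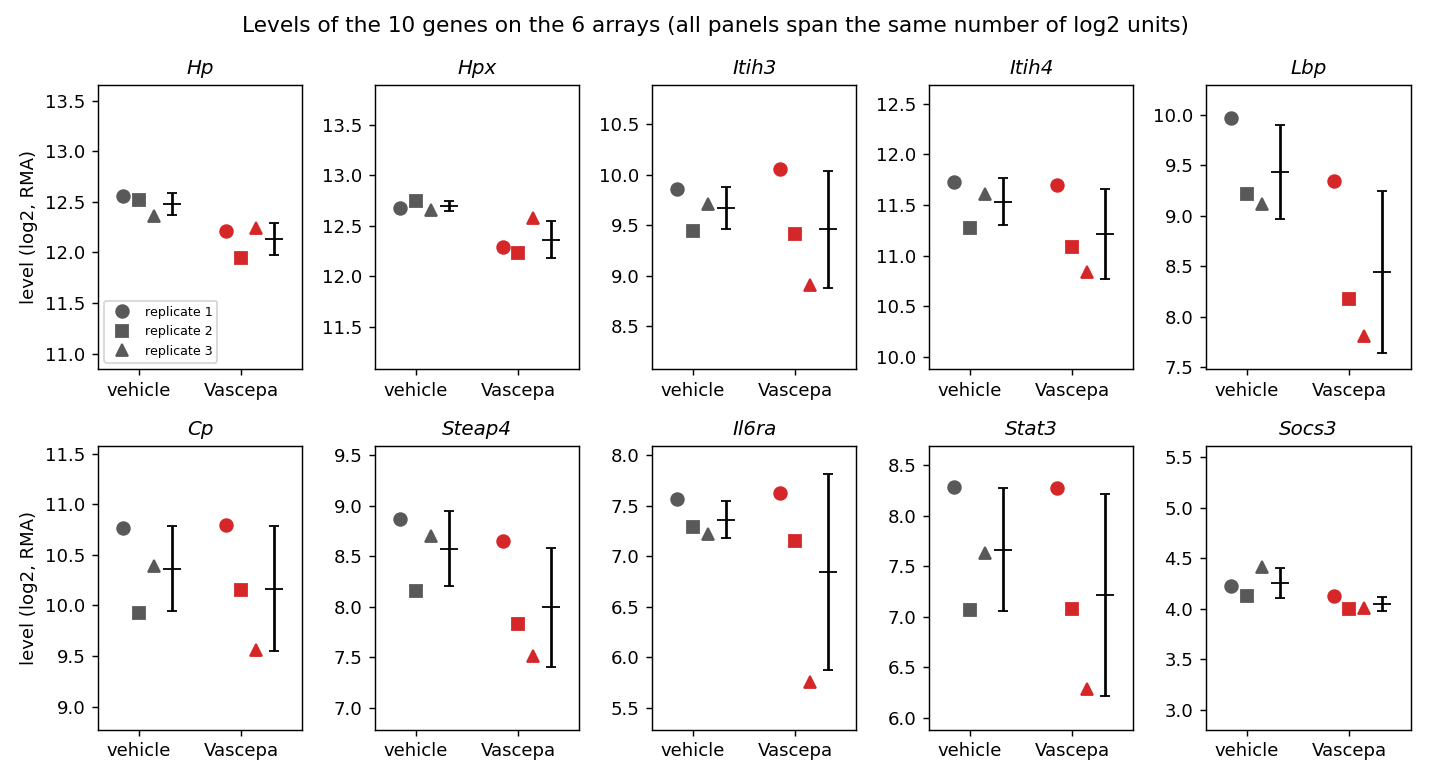
Log2 level (y axis) of each of the 10 genes by group (x axis), with a point for each array, its shape giving the replicate number, and the mean ± SD (n = 3) beside the points. All panels span the same number of log2 units. Hp spans 0.20 in vehicle and 0.30 in Vascepa livers, and Hpx 0.089 and 0.34. Stat3 runs from 8.29 to 7.07 in vehicle livers and from 8.27 to 6.29 in Vascepa livers.

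Haptoglobin and hemopexin, the scavengers of free haemoglobin and heme, were the members whose groups did not overlap. Hp read 12.56, 12.52 and 12.36 in vehicle livers 1, 2 and 3 and 12.21, 11.95 and 12.25 in Vascepa livers 1, 2 and 3. Every Vascepa array lay below every vehicle array, the nearest pair being 0.11 apart. The means were 12.48 ± 0.11 and 12.13 ± 0.16 (SD, n = 3), a 1.27-fold lower level (log2 difference −0.35 ± 0.18, SE). Hpx read 12.68, 12.75 and 12.66 in vehicle livers and 12.29, 12.23 and 12.57 in Vascepa livers. Its vehicle arrays lay within 0.089 of each other, and Vascepa replicate 3 was only 0.083 below the lowest of them. The difference was −0.33 ± 0.18 (SE), or 1.26-fold. Non-overlap on the lower side was found in 2 of 10 members and in 5.11% of all genes. The intervals at 95%, −0.76 to 0.068 for Hp and −0.74 to 0.083 for Hpx, both include 0.

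Lbp, which presents lipopolysaccharide to CD14, had the largest difference. It read 9.97, 9.22 and 9.12 in vehicle livers and 9.35, 8.18 and 7.81 in Vascepa livers. Vascepa replicate 1 lay within the vehicle range, and the other Vascepa arrays lay below every vehicle array. The means were 9.43 ± 0.47 and 8.44 ± 0.80 (SD, n = 3), a difference of −0.99 ± 0.41 (SE) with an interval from −1.95 to −0.030 (limma, unadjusted p = 0.0448, adjusted p = 0.976). Leaving out Vascepa replicate 1 gave −1.44, and leaving out Vascepa replicate 3 gave −0.67.

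The inter-alpha-trypsin inhibitor heavy chains Itih3 and Itih4 shared a pattern in which Vascepa replicate 3 was lowest. Itih4 read 11.73, 11.27 and 11.60 in vehicle livers and 11.70, 11.09 and 10.84 in Vascepa livers (−0.32 ± 0.26, SE). Itih3 read 9.86, 9.45 and 9.71 in vehicle livers and 10.06, 9.41 and 8.91 in Vascepa livers (−0.21 ± 0.30). For both genes Vascepa replicate 1 stood with the higher vehicle arrays, and the groups overlapped. The Itih3 difference turned to 0.061 without Vascepa replicate 3 and was −0.51 when Vascepa replicate 1 was left out. For Itih4 the same omissions gave −0.14 and −0.57.

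Ceruloplasmin and the reductase Steap4 handle copper and iron. Cp read 10.77, 9.93 and 10.39 in vehicle livers and 10.79, 10.15 and 9.56 in Vascepa livers. Its highest array and its lowest were both Vascepa arrays, and the difference was −0.19 ± 0.35 (SE). It turned to 0.11 without Vascepa replicate 3 and to 0.0069 without vehicle replicate 1, and was −0.51 when Vascepa replicate 1 was left out. Steap4 read 8.87, 8.15 and 8.70 in vehicle livers and 8.65, 7.82 and 7.51 in Vascepa livers. Vascepa replicates 2 and 3 lay below every vehicle array, and replicate 1 lay among them. The difference was −0.58 ± 0.33 (SE), with an interval from −1.34 to 0.18. Leaving out Vascepa replicate 1 gave −0.91 and leaving out replicate 3 gave −0.34.

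Il6ra and Stat3, the receptor and the transcription factor of the signalling chain, had overlapping groups. Il6ra read 7.57, 7.29 and 7.22 in vehicle livers and 7.62, 7.15 and 5.75 in Vascepa livers. Vascepa replicate 3 stood apart from the other 5 arrays, and the difference of −0.52 ± 0.44 (SE) became 0.029 without it and −0.91 when Vascepa replicate 1 was left out instead. Stat3 read 8.29, 7.07 and 7.63 in vehicle livers and 8.27, 7.08 and 6.29 in Vascepa livers. Vascepa replicates 1 and 2 lay close to the highest and the lowest vehicle array, replicate 3 lay below all of them, and the vehicle arrays alone spanned 1.22, more than the difference of −0.45 ± 0.51 (SE). It was 0.014 without Vascepa replicate 3, −0.14 when vehicle replicate 1 was left out and −0.98 when Vascepa replicate 1 was.

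Socs3, the feedback inhibitor, had its groups meet at a tied value. Its brighter probe read 4.23, 4.12 and 4.41 in vehicle livers and 4.12, 4.002 and 4.008 in Vascepa livers, with vehicle replicate 2 and Vascepa replicate 1 tied at the same value. No Vascepa array lay above any vehicle array, and the difference was −0.21 ± 0.17 (SE). The second Socs3 probe read 2.15, 2.40 and 2.24 in vehicle livers and 2.04, 2.32 and 2.27 in Vascepa livers, below the intensity filter of 2.65, and was not tested. With both probes averaged the Socs3 difference was −0.13.

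**Figure D2:**
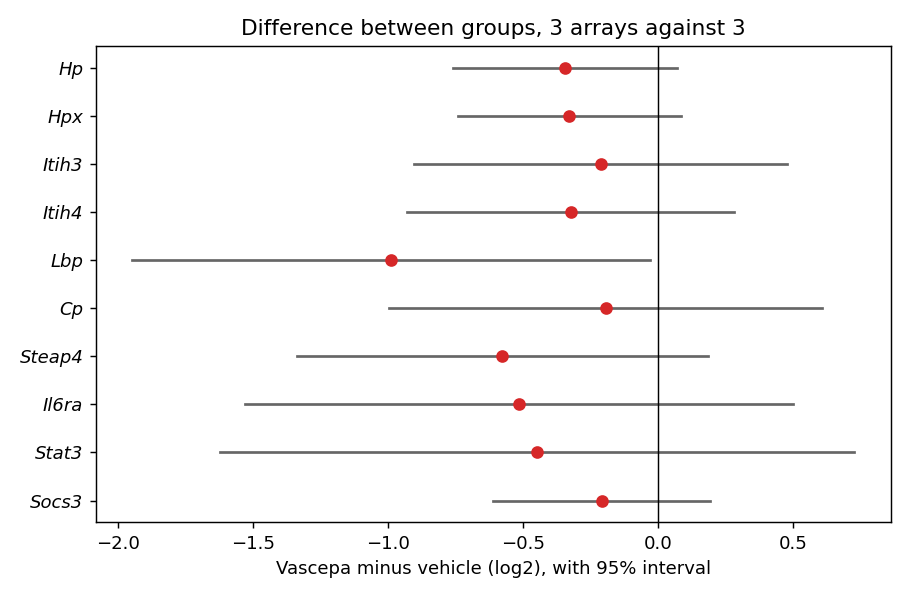
Vascepa minus vehicle difference (x axis, log2) of each gene with its 95% interval from limma, 3 arrays against 3. All 10 points lie below 0, and the interval of Lbp alone, from −1.95 to −0.030, leaves 0 out before adjustment.

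Differences between the arrays of a group were as large as those between the groups in most members. In 9 of the 10 the range within at least 1 group exceeded the difference of the group means, the exception being Hp. Vascepa replicate 3 was the lowest array in 7 members and Vascepa replicate 2 in the other 3. Among all genes, Vascepa replicate 3 was lowest in 38.8%. Relative to each gene's vehicle mean, the median of the members lay at 0.20, −0.22 and −0.0010 in vehicle livers 1, 2 and 3 and at 0.12, −0.45 and −0.78 in Vascepa livers. On Vascepa replicates 2 and 3 all 10 members lay under their vehicle means, and on Vascepa replicate 1 this held for 4 of 10.

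The level of small nucleolar RNAs, short nuclear RNAs that guide RNA modification, moved with part of this order. Their mean log2 level over 68 genes was 5.80, 6.69 and 6.06 in vehicle livers and 5.67, 6.82 and 7.36 in Vascepa livers. Itih3, Itih4, Cp, Steap4 and Stat3 had their 3 lowest values on the 3 arrays highest in these RNAs, which held for 22.7% of all genes. Hp and Hpx did not follow this order, their lowest values being on Vascepa replicates 2 and 1. With the small RNA level as a covariate, added to the same limma model, the difference was 0.053 for Itih3, 0.13 for Cp, 0.062 for Stat3, −0.10 for Itih4, −0.27 for Steap4 and −0.16 for Il6ra. It was −0.61, −0.38 and −0.34 for Lbp, Hpx and Hp. In that fit 0 of 10 members passed the adjusted threshold (limma, lowest adjusted p = 0.763 in Lbp), and Lbp and Hpx were lower at an unadjusted p under 0.05, against 3.76% of all genes in the same fit.

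**Figure D3:**
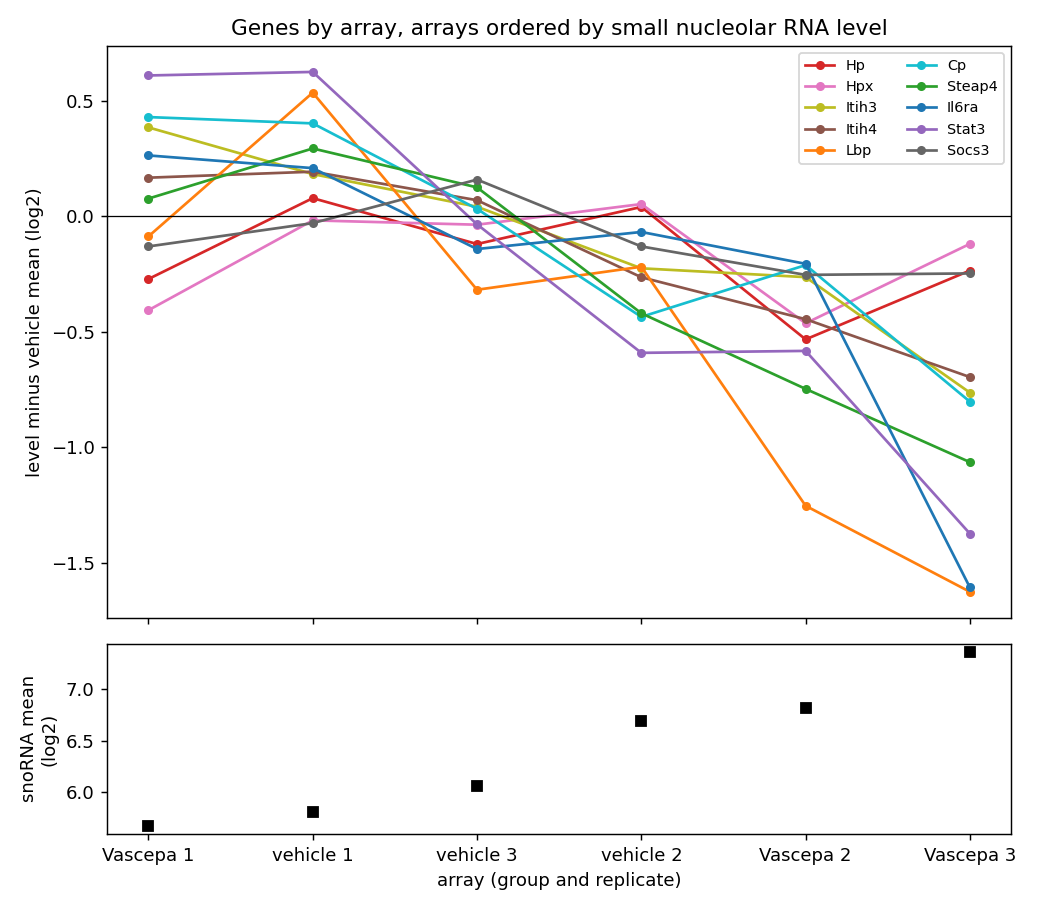
Upper panel, level of each gene minus its vehicle mean (y axis, log2) on the 6 arrays (x axis), which are placed in order of their small nucleolar RNA level, drawn in the lower panel (log2). Stat3 runs from 0.61 on Vascepa replicate 1 to −1.37 on Vascepa replicate 3, while Hp and Hpx lie at −0.27 and −0.41 on the first and at −0.23 and −0.12 on the last.

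Hepatocyte markers, by which the tissue label was checked, were all above the filter (12 of 12), with albumin (Alb) at 13.31 in vehicle and 13.27 in Vascepa livers. Their mean log2 level was 11.11 to 11.26 on the vehicle arrays and 10.73 to 11.30 on the Vascepa arrays, the lowest being Vascepa replicate 3. Of the 12, 10 were lower and 2 higher, with a median of −0.11, against 60.1% of all genes lower. The smallest p were those of Serpinc1 and F2, which differed by −0.24 and −0.21. Each array was also centred on these markers, a setting chosen after seeing the data, which moved the median of all genes from −0.063 to 0.11. Alb, Ttr, Apoa1 and Ahsg among them also count below as proteins made less in inflammation, and F2 as an acute phase protein. The reference is thus not separate from that response. The differences of Hp, Hpx and Itih4 became −0.18, −0.16 and −0.16, those of Itih3, Cp and Socs3 became −0.044, −0.025 and −0.041, and those of Stat3, Il6ra and Steap4 became −0.28, −0.35 and −0.41. Lbp differed by −0.82 (limma, unadjusted p = 0.0440, adjusted p = 0.966). Non-overlap on the lower side was found in 0 of 10 members after this centring, so the groups overlapped for Hp and Hpx too. Among all genes it was found in 1.79%. In whole liver, fewer cells of a type and less RNA per cell cannot be told apart.

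Leaving out single arrays changed the members in different ways. Without Vascepa replicate 3, 6 of the 10 were lower, against 53.1% of all genes. Without Vascepa replicate 1, 5 members were lower at an unadjusted p under 0.05, namely Lbp, Steap4, Stat3, Itih4 and Il6ra, against 11% of all genes. In that comparison of 3 arrays with 2, 8 members did not overlap on the lower side, against 20.4% of all genes, and 0 passed the adjusted threshold (limma, lowest adjusted p = 0.306). Hp lay between −0.41 and −0.25 and Hpx between −0.43 and −0.26 whichever array was left out.

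**Figure D4:**
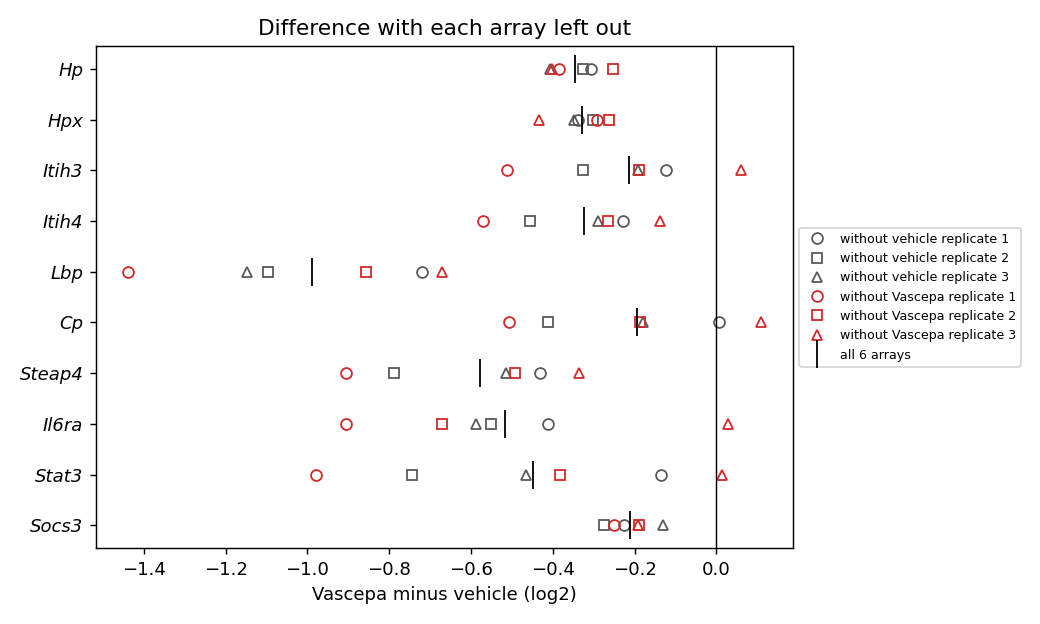
Vascepa minus vehicle difference (x axis, log2) of each gene with all 6 arrays (bar) and with each array left out in turn (open symbols). Hp and Hpx stay between −0.43 and −0.25, and Cp, Il6ra, Itih3 and Stat3 cross 0 without Vascepa replicate 3.

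Other parts of the IL-6 pathway were split in direction. Of 28 IL-6 family cytokines, receptors and JAK-STAT genes, 23 were tested, 12 lower and 11 higher, with a median of −0.013 and 0 past the adjusted threshold or an unadjusted p under 0.05. The smallest p were those of Lif, a cytokine of the family, at 0.35 ± 0.19 (SE), and Cntfr, a receptor of the family, at −0.43 ± 0.28. Lif was dim, with a vehicle mean of 2.50 that lay under the filter. STAT3-responsive genes that act inside the cell had 12 of 16 lower and 4 higher, with a median of −0.12, and again 0 at an unadjusted p under 0.05. Myc, a growth regulator, differed by 0.39 ± 0.22, and Bcl2l1, a survival factor, by −0.36 ± 0.21.

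Acute phase proteins outside the 10 were mostly lower in the mean too. Their mean log2 level was 8.60, 8.48 and 8.94 on Vascepa arrays 1, 2 and 3, but the order of these arrays was not the same in every gene. Of 25 tested, 23 were lower and 2 higher, with a median of −0.30. At an unadjusted p under 0.05 there were 4, all of them lower, against 1.64% of all genes on that side. None passed the adjusted threshold. The 2 higher, named because they went the other way, were Hamp at 0.82 ± 0.47 and A2m at 0.12 ± 0.18. A2m had a vehicle mean of 2.64, under the filter. Il1rn, the interleukin-1 receptor antagonist, differed by −0.62 ± 0.19, and Orm2, an orosomucoid, by −1.28 ± 0.46. Vascepa replicate 3 was the lowest Vascepa array for Il1rn, at 3.41, and the highest for Orm2, at 7.90. Proteins that the liver makes less of in inflammation did not lie the opposite way. Of 11 tested, 9 were lower and 2 higher, with a median of −0.13, and Serpina6, which carries corticosteroids, and Fetub, a fetuin, differed by −0.44 ± 0.21 and −0.52 ± 0.36. A lower mean was thus common to both kinds of plasma protein, and to 60.1% of all genes.

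The partners of single members gave values in both directions. In the inter-alpha-trypsin inhibitor family outside Itih3 and Itih4, 3 of 4 tested genes were lower, with a median of −0.19. Ambp, which encodes the light chain bikunin, differed by −0.18 ± 0.17 and Itih5 by 0.20 ± 0.18. Genes of haemoglobin and heme clearance, the route that Hp and Hpx feed, had 4 of 7 lower, with a median of −0.054. Hmox1, which breaks down heme, read 5.38, 5.27 and 5.43 in vehicle livers and 5.16, 5.12 and 4.98 in Vascepa livers (−0.27 ± 0.17), and Blvra, a biliverdin reductase, differed by 0.17 ± 0.26. The Hmox1 groups did not overlap, and it missed the threshold (limma, adjusted p = 0.976). Lipopolysaccharide recognition genes, the partners of Lbp, had 6 of 9 lower, with a median of −0.24, with Ticam1 and Myd88, adaptors of Toll-like receptors, at −0.81 ± 0.35 and −0.55 ± 0.32. Vascepa replicate 3 was lowest for both adaptors, at 2.40 and 3.87. Other STEAP reductases and metal transporters had 8 of 10 lower, with a median of −0.22, with Steap3 at −0.76 ± 0.33 and the copper importer Slc31a1 at −0.29 ± 0.25. In these 4 lists 0 genes had an unadjusted p under 0.05. Non-overlap on the lower side held for 1 of 4, 2 of 7, 1 of 9 and 0 of 10 tested genes, in the order given. Ambp, Hmox1 and Ticam1 were among them, and the share over all genes was 5.11%.

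Signals upstream of the acute phase response included 1 gene lower at an unadjusted p under 0.05, against 1.64% of all genes. Of 13 genes of IL-1, TNF and NF-kB signalling, 10 were lower and 3 higher, with a median of −0.21. Il1b, a cytokine that induces IL-6, read 4.41, 4.07 and 3.67 in vehicle livers and 2.86, 3.32 and 3.53 in Vascepa livers, with no overlap (−0.81 ± 0.26, SE). Nfkbiz, a nuclear cofactor of NF-kB, differed by −0.38 ± 0.18, also with no overlap. Non-overlap on the lower side held for these 2 of the 13 genes, against 5.11% of all genes. Neither passed (limma, adjusted p = 0.976 for each).

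Markers of other cells that a liver piece can hold were read beside these genes, and their part in the differences was not tested. Kupffer cell markers, of the resident macrophages, were lower in 11 of 12 cases, against 60.1% of all genes. Their mean level of 5.78 to 6.05 on the Vascepa arrays lay below the 6.11 to 6.19 of the vehicle arrays. At an unadjusted p under 0.05, 3 of the 12 were lower, against 1.64% of all genes. The same 3 did not overlap, against 5.11%, and 0 passed the adjusted threshold. Vsig4 and Cd68, among these 3, differed by −0.53 ± 0.18 and −0.54 ± 0.20 (SE). Neutrophil and monocyte markers read 2.46 to 2.72 in vehicle and 2.44 to 2.88 in Vascepa livers. Of 13, 6 passed the filter, 3 lower and 3 higher, with Cxcr2 and Ngp at differences of −0.30 and 0.27, and Ly6g, a defining marker, lay under it at 2.35 and 2.42. Adipocyte markers read 2.46 to 2.70 and 2.45 to 2.65, with 2 lower and 1 higher of the 3 that passed, and Lipe and Plin1 at differences of −0.38 and 0.30. T and B cell markers read 3.16 to 3.34 and 3.20 to 3.33. Of 9, 6 passed, 4 lower and 2 higher with a median difference of −0.033, and the smallest p were those of Cd3e and Cd3g at −0.46 and −0.11. Sinusoidal endothelial markers read 6.41 to 6.55 and 6.08 to 6.54, with 6 lower and 2 higher of 8 and a median of −0.091, and the smallest p were those of Pecam1 and Oit3 at −0.43 and −0.44. Stellate cell markers read 5.98 to 6.02 and 5.65 to 6.23, with 4 lower and 3 higher and a median of −0.087, and Hgf and Ngfr differed by −0.44 and 0.26. Cholangiocyte markers read 2.85 to 3.24 and 2.77 to 3.25, with 1 lower and 3 higher and a median of 0.083, and Sox9 and Krt7 differed by −0.43 and 0.30. Skeletal muscle markers read 2.83 to 2.94 in vehicle and 2.99 to 3.08 in Vascepa livers, without overlap. Of 7, 5 passed the filter, 4 higher and 1 lower, with a median of 0.41. Acta1 and Mb differed by 0.52 and 0.41. Acta1 was higher without overlap (limma, unadjusted p = 0.0178, adjusted p = 0.976). At an unadjusted p under 0.05 there were 2.68% of all genes on both sides. The lower one, Tnnt3, chosen after its values were seen, differed by −0.12, also without overlap, against 5.11% of all genes on the lower side. Myh4 and Myl1, named because they are the muscle markers under the filter, had means of 1.74 and 1.95 in vehicle and 1.51 and 1.86 in Vascepa livers. Pancreatic acinar markers read 2.44 to 2.66 and 2.60 to 2.73, and 4 of 8 passed the filter, all higher. Among them Clps had a vehicle mean of 2.51, under the filter, and passed through its Vascepa mean of 3.03, and Ctrb1 differed by 0.29. The acinar markers under the filter went both ways. In vehicle and Vascepa livers Cpa1 had means of 2.54 and 2.43, Cela3b 1.95 and 1.82, Prss2 1.14 and 1.15, and Amy2b 1.42 and 1.65. Erythroid cells had a single marker with a probe of its own, Slc4a1, at 3.92 and 3.83 in the mean.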

How the data were processed

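Liver RNA of 6 mouse samples, 3 per group, was biotin-labelled and hybridised to Affymetrix GeneChips. The authors deposited log2 expression values, made with Affymetrix Expression Console and RMA per the submitters' processing notes (versions: not given in the sources used here). In RMA the background is corrected, the arrays are quantile-normalized and the probes summarised on the log2 scale, which compresses differences at the dim end. The number of arrays limits the precision. Scan dates and scanner files were not used here.

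Of 41345 probes, 23521 had 1 gene symbol in the platform annotation, 1814 several and 16010 none. Symbols of 23328 were updated through a RefSeq table. Each gene took its brightest single-symbol probe, kept where its mean over the arrays reached 2.65, the median over all probes, leaving 13493 genes. Groups were compared with limma 3.58.1 in R 4.3.3, with Benjamini-Hochberg adjustment over all genes. The procedure was tested on simulated data in which genes varied independently. Those data lacked the array pattern that many genes share here, so the simulation does not cover it. The 10 members and the gene lists were chosen with earlier results of these data known. Beside the members, the 2 tested genes of smallest p in every other list were named, with single defining markers (Alb, Ly6g). Alternatives were another normalization or centring, other filters, averaged probes, a trended prior, array weights, a replicate block, a small RNA covariate and leaving out each array. Centring on hepatocyte markers was chosen after seeing the data.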

Additional observations from a re-analysis of the deposited data

How the results depend on the processing

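Across 16 alternatives, Hp, Hpx, Lbp, Itih4 and Steap4 kept the lower direction in each, as did Socs3 in the 15 in which it was tested. The other filters, the trended prior and the replicate block left each tested gene's difference as it was, so its direction could not change there. The same held for averaged probes in genes with 1 probe. With array quality weights limma called 4100 genes and 7 of the 10 members (Hp, Hpx, Itih4, Lbp, Steap4, Stat3 and Socs3), and the weight estimation stopped before it converged. No other alternative called a member, and the small nucleolar RNA score as a covariate called 2 genes in all. That covariate turned Itih3, Cp and Stat3 to 0.053, 0.13 and 0.062. Leaving out each array in turn gave 6 to 10 members lower, a member median of −0.54 to −0.17 and 0 genes called. Over these fits Itih3 ranged from −0.51 to 0.061, Cp from −0.51 to 0.11, Il6ra from −0.91 to 0.029 and Stat3 from −0.98 to 0.014. The positive values came without Vascepa replicate 3, and for Cp also without vehicle replicate 1 (0.0069). The labels do not say whether replicate numbers pair the samples, and deviations of same-numbered arrays from the group means correlated at 0.61, 0.11 and −0.13, so they were not treated as pairs. With the replicate block 0 genes were called, and the unadjusted p of Lbp went from 0.0448 to 0.00235 (limma, adjusted p = 0.946). In this balanced layout the block leaves the differences themselves unchanged, so the 10 lower members and their median of −0.34 are those of the main fit. The cause of these changes was not tested.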
